A study of Mus musculus with 2 samples.

Results

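The myocyte enhancer factor 2 (Mef2) family of transcription factors was followed across the tissues of the mouse inter-limb somite region at embryonic day (E) 9.5 and E11.5. Its members were taken by gene symbol, which gave 4 genes, Mef2a, Mef2b, Mef2c and Mef2d, of the 27998 in the annotation of the deposited matrices. The samples were 1 10x Chromium library per stage, each from dissociated inter-limb somites of 3 wild type C57BL/6 embryos that were pooled before capture. Neither a transgene nor a treatment was used. The groups differed by stage, which cannot be told apart from the library, the dissection or the pool of embryos. Because embryos were pooled and each stage was captured once, no replicate exists, cells are not replicates, and no difference below carries a test. Every interval given is an exact 95% interval for counting error only.

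MEF2 proteins share a MADS box, the domain that binds an A/T-rich DNA motif, and they act as dimers on genes of muscle, blood vessel, neural crest, neuron and immune cell differentiation. In muscle they work together with the myogenic factors Myf5, Myod1, Myog and Myf6, which bind E-boxes, and their targets include genes of the contractile apparatus. Class IIa histone deacetylases (Hdac4, Hdac5, Hdac7 and Hdac9) and Cabin1 hold MEF2 inactive, and kinases and the phosphatase calcineurin relieve or alter that hold.

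Cells with at least 200 and fewer than 6500 detected genes and under 15% mitochondrial UMIs were kept, which left 9851 of 10121 barcodes at E9.5 and 9595 of 10167 at E11.5. A UMI (unique molecular identifier) marks 1 captured RNA molecule. Depth per kept cell was close between the stages, with medians of 12462 (E9.5) and 12479 (E11.5) UMIs. Levels are given as the UMIs of a gene in a class of cells per 1000000 UMIs of that class (UPM), and a gene was counted as past 2-fold where its ratio reached 2 with at least 20 UMIs in the compared classes together. Of the barcode sequences, 30 occurred in both libraries and 25 of these were kept in both.

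Muscle cells were ordered by gates on UMIs in a cell. The Pax gate held Pax3 or Pax7 progenitors without Myf5, Myod1 or Myog, the Myf5 gate cells with Myf5 alone of these factors, and the Myod1 gate cells with Myod1 and no Myog. The Myog-low gate took 1 to 4 and the Myog-high gate at least 5 Myog UMIs, all with at most 9 Acta1 UMIs. The Acta1 gate took cells with at least 10 UMIs of Acta1, the skeletal alpha-actin gene, and at least 1 of Myod1 or Myog. Endothelial cells carried Cdh5 and Pecam1, neural crest cells Sox10 with a further gene such as Foxd3 or Erbb3, and neurons Tubb3, Elavl3 and Stmn2. The gates of a single tissue took 5294 of the E9.5 cells and 4038 of the E11.5 cells. Gates of more than 1 tissue were passed by 316 and 218 cells, which were left out of them, and 4241 and 5339 cells passed no gate.

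Markers that the gates did not use were read for each gate. They set the early muscle gates apart less well at E9.5 than at E11.5. At E9.5 5 muscle progenitor genes summed to 193 UPM in Pax and 202 UPM in Myf5. Endothelium stood at 127 UPM for this list and all kept cells at 80.6 UPM. At E11.5 the list summed to 1462 UPM in Pax, 2380 UPM in Myf5 and 108 UPM in endothelium. The sclerotome genes stood at 140 UPM in the E9.5 Pax gate and 107 UPM over all kept cells. The summed level of 7 myocyte genes (Actc1, Mylpf, Tnnc1, Myl1, Ttn, Neb and Tnnt1) was 46380 UPM in the E11.5 Acta1 gate and 6315 UPM in Myog-high. In the endothelial gate 6 endothelial genes summed to 2713 UPM at E9.5 and 3273 UPM at E11.5, and in the neuron gate 6 neuronal genes summed to 2065 and 4960 UPM, with every gene of each list detected. The 6 neural crest genes summed to 473 UPM at E9.5 and 2417 UPM at E11.5 in their own gate. That list did not single the gate out, since Fabp7 alone reached 3088 UPM in the E11.5 neural tube progenitor gate against 1436 UPM in neural crest; Tfap2b stood at 47.4 UPM in the E11.5 neural crest gate and at 0.714 UPM in neural tube progenitors.

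The 4 genes lie on separate chromosomes of GRCm38. Mef2a (ENSMUSG00000030557) spans chromosome 7, 67231163 to 67372858, on the minus strand. Mef2b (ENSMUSG00000079033) spans chromosome 8, 70139711 to 70167488, on the plus strand. Mef2c (ENSMUSG00000005583) spans chromosome 13, 83504034 to 83667080, and Mef2d (ENSMUSG00000001419) spans chromosome 3, 88142372 to 88172086, both on the plus strand.

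Promoter sites are shown because several genes whose levels are given below, a family member among them, carry the motif that the family binds. RefSeq start sites on GRCm38.p6 were searched from 250 bases before to 50 after, on both strands. The MEF2 consensus was searched as YTAWWWWTAR, where Y is C or T, W is A or T and R is A or G. No mismatch was allowed, so a site that departs from it by 1 letter was not counted. The consensus was found in 1047 of 32851 such windows (3.19%). Of the 4 Mef2 genes 1 held it (Mef2a), of the 7 muscle targets with a RefSeq window only Srpk3 did, of 5 endothelial targets 2 (Klf2 and Hlx), and of 5 corepressors 1 (Hdac5). None of the 6 kinase and calcineurin genes and none of the 8 cofactors and partners with a window held it, nor did Rxrg. A gene was counted if any of its windows matched, so these counts are not in the unit of the 3.19%, a share of windows. The 30 bases around each match are printed 5′ to 3′ on the strand of the gene, with the match in capitals.
Mef2a, chr7:67372841-67372870 (minus strand, match from base -2 relative to the start site): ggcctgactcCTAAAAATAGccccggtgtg
Srpk3, chrX:73774328-73774357 (plus strand, from base -67): agctgggaggCTATTTATAAaggcgagtga
Klf2, chr8:72318934-72318963 (plus strand, from base -118): tataccgcggCTAAATTTAGgctgagcccg
Hlx, chr1:184732497-184732526 (minus strand, from base -23): tattgttgttTTAAATTTAGctcttagggc
Hdac5, chr11:102230173-102230202 (minus strand, from base -20): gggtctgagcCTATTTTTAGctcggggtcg
None of the 3 Mef2c windows held the MEF2 consensus. The window at the start of the gene held the E-box letters CANNTG at 2 places and another window held them once, as did 72.3% of all windows (23756 of 32851). The Myog window held them at 2 places. The E-boxes nearest the start sites are given for this pair of genes because their levels rose in the same muscle cells.
Mef2c, chr13:83503922-83503951 (plus strand, from base -100): aactttttatacCATATGaaagcaatttca
Myog, chr1:134289980-134290009 (plus strand, from base -12): aatggcacccagCAGTTGgtgtgaggggct
A match is a description of the letters and not of binding, which was not measured here.

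Mef2b was not detected. Not 1 of the 149368952 UMIs at E9.5 or the 136655763 at E11.5 was assigned to it, in kept or removed barcodes. In the kept cells a count of 0, taken to allow up to 3 UMIs, allows 0.0215 UPM at E9.5 and 0.0231 UPM at E11.5. In the GENCODE spans Mef2b overlaps Borcs8, a gene of a lysosome positioning complex, on the same strand over 7609 bases, although the genes share 62 of the 1404 exonic bases of Mef2b (4.42%). The overlap depends on the annotation, since the RefSeq promoter window of Mef2b (70152511 to 70152810) lies past the end of Borcs8 (70147319). Borcs8 stood at 32.1 UPM at E9.5 and 44.2 UPM at E11.5, and whether reads of Mef2b were assigned elsewhere was not tested. The account of levels below therefore concerns the other 3 genes.

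Over all kept cells every detected member stood higher at E11.5. Mef2c rose most, from 22.7 UPM (3174 UMIs) to 84.6 UPM (10983 UMIs), a log2 ratio of 1.90 [1.84, 1.95] or 3.72-fold. Mef2a went from 29.7 to 47.5 UPM, a log2 ratio of 0.68 [0.62, 0.74], and Mef2d, the lowest of the detected members, from 8.13 to 13.7 UPM, a log2 ratio of 0.75 [0.65, 0.86]. Mef2c alone of the 4 was at least 2-fold higher, as were 24.3% of the 16764 genes compared, while 5.67% were at least 2-fold lower. In these whole-library sums, more cells of a type and more RNA per cell cannot be told apart.

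Most of the added Mef2c UMIs lay in cells of the muscle gates, which supplied 420 of them at E9.5 and 6802 at E11.5. These gates took 1074 cells of the earlier and 1467 of the later stage, in which Mef2c went from 22.5 to 270 UPM, Mef2a from 31.3 to 92.3 UPM and Mef2d from 6.91 to 20.4 UPM. The pooled gates differed in make-up. The Pax gate held 674 cells at E9.5 and 128 at E11.5, Myog-high 13 and 319, and Acta1 5 and 173. These pooled levels therefore mix make-up with level, and stage ratios within single muscle gates are given below. Without the muscle gates, an alternative chosen after the data were seen, the log2 ratios over the remaining cells fell to 0.81 for Mef2c, 0.32 for Mef2a and 0.54 for Mef2d. Cells that passed a muscle gate and the gate of another tissue stayed among these remaining cells. Cells in gates of more than 1 tissue supplied 194 of the 2754 remaining Mef2c UMIs at E9.5 and 759 of 4181 at E11.5. Their part in these ratios was not tested. In the cells that passed no gate Mef2c was level, at 19.5 UPM at E9.5 and 19.9 UPM at E11.5, a log2 ratio of 0.03 [-0.09, 0.16], while Mef2a (27.4 and 35.3 UPM) and Mef2d (7.90 and 11.1 UPM) stood higher at E11.5. The share of Mef2c UMIs by source shifted accordingly: the Acta1 gate supplied 5.95% of them from 5 cells at E9.5 and 48.4% from 173 cells at E11.5, and the endothelial gate 26.2% at E9.5 and 3.26% at E11.5.

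**Figure D1:**
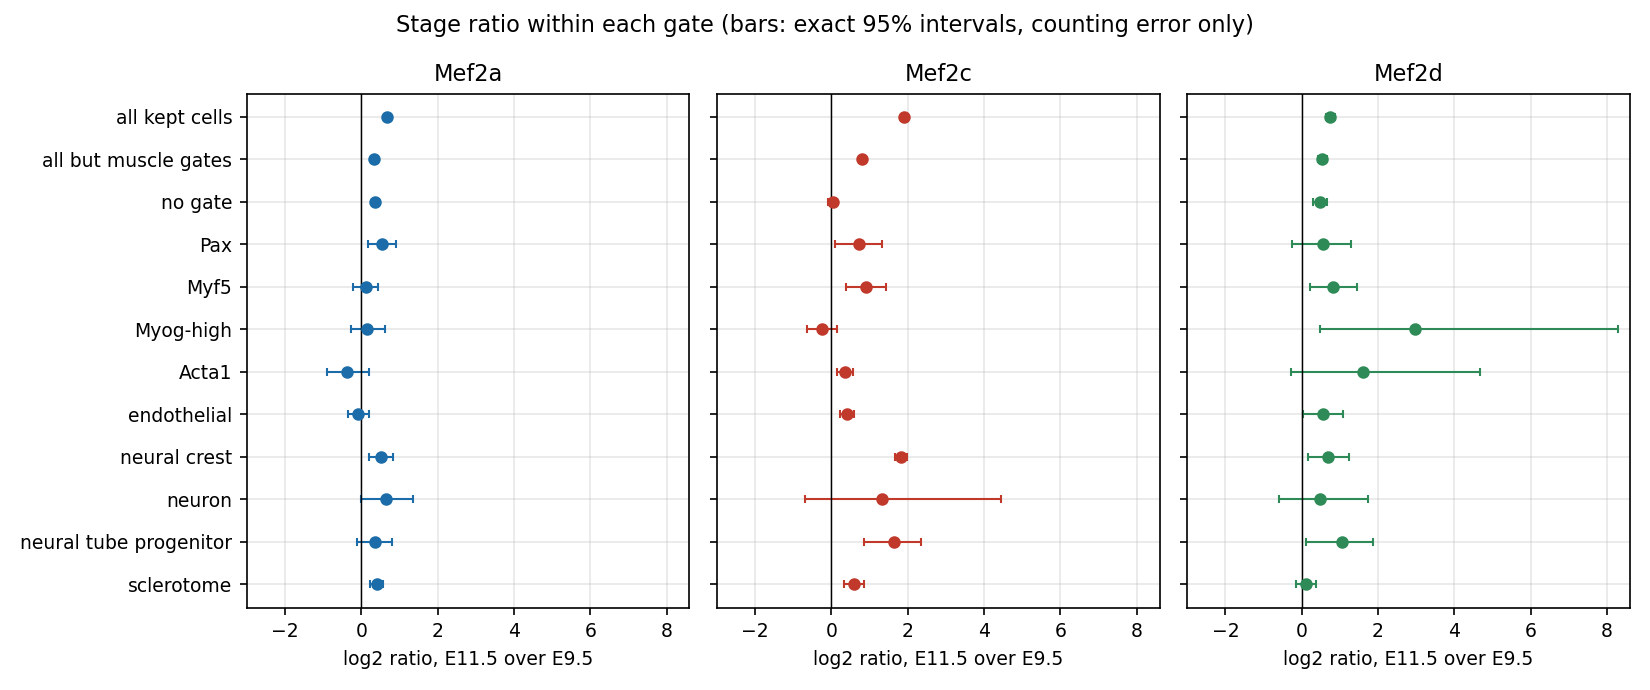
Log2 ratio of E11.5 over E9.5 (x axis) for Mef2a, Mef2c and Mef2d (panels) within all kept cells, the cells outside the muscle gates and single gates (y axis), with exact 95% intervals for counting error. The cells outside the muscle gates include those in gates of more than 1 tissue. The line at 0 marks no difference. Mef2c moved by 1.90 over all cells, by 0.03 in ungated cells and by 1.82 in neural crest, while Mef2a moved by 0.68 over all cells, by 0.36 in ungated cells and by 0.51 in neural crest.

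Along the E11.5 muscle gates the members were low and nearly flat until Myog accumulated. Mef2a stood at 37.7 UPM in the Pax gate (128 cells), 34.4 in Myf5 (242 cells), 30.8 in Myod1 (282 cells) and 45.3 in Myog-low (323 cells), then at 203 UPM in Myog-high (319 cells) and 163 UPM in Acta1 (173 cells). Mef2c stood at 15.4, 17.6, 13.5 and 25.7 UPM in the same early gates, then at 198 UPM in Myog-high and 1704 UPM in Acta1. Mef2d stood between 9.42 and 12.4 UPM in the early gates, at 32.6 UPM in Myog-high and at 42.9 UPM in Acta1. The intervals of each member's Pax, Myf5 and Myod1 levels overlapped, so no order among these progenitor gates is read.

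The step from the Myod1 to the Myog-high gate raised all 3 detected members. The log2 ratio was 2.72 [2.47, 2.98] for Mef2a, 3.87 [3.51, 4.25] for Mef2c and 1.59 [1.15, 2.06] for Mef2d. These 3 of 4 members were past 2-fold higher, where 5.89% of the 11135 genes compared were, and 8.16% were past 2-fold lower. Part of the step was already present at low Myog, since Mef2c in Myog-low exceeded Myod1 by a log2 ratio of 0.93 [0.49, 1.38] and Mef2a by 0.56 [0.26, 0.86], whereas for Mef2d the interval of 0.19 held 0 [-0.36, 0.74].

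The step from Myog-high to Acta1 separated the paralogs. Mef2c rose again, by a log2 ratio of 3.11 [3.02, 3.20] or 8.63-fold. Mef2a fell by 0.32 on the log2 scale [-0.47, -0.16], and Mef2d was higher by 0.40 [0.07, 0.72], a difference that shrank to 0.0521 with an interval holding 0 when the Acta1 boundary was moved to 20 UMIs. Mef2c was thus the 1 member of 4 past 2-fold, against 11.8% of 10840 genes past 2-fold higher and 13.3% past 2-fold lower. Measured from Myod1 to Acta1 the whole rise of Mef2c was 126-fold, that of Mef2a 5.30-fold and that of Mef2d 3.97-fold, where 13.3% of genes were past 2-fold higher and 21.6% past 2-fold lower.

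**Figure D2:**
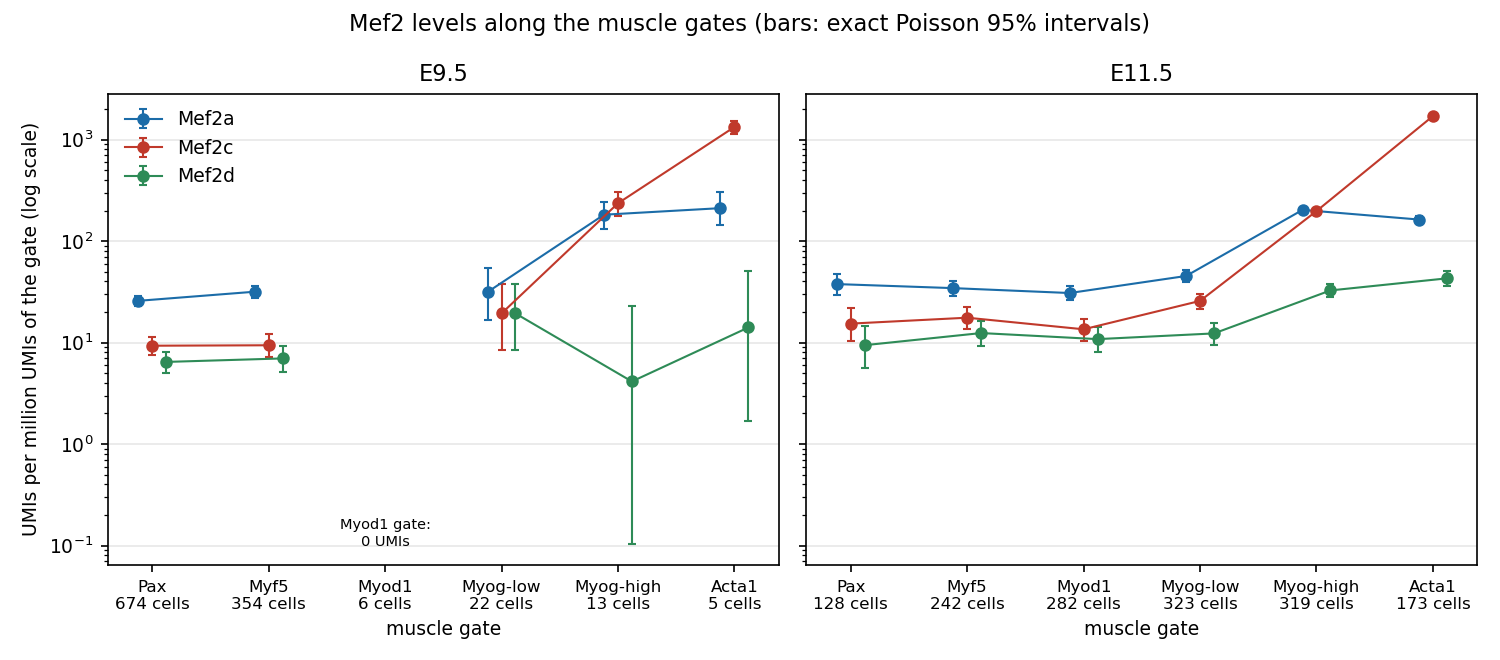
Level of Mef2a, Mef2c and Mef2d (y axis, UMIs per 1000000 UMIs of the gate, log scale) in the 6 muscle gates (x axis, with cell numbers) at E9.5 (left) and E11.5 (right), with exact Poisson 95% intervals. At E11.5 Mef2c reaches 1704 UPM in the Acta1 gate while Mef2a stays at 163 UPM; the 6 cells of the E9.5 Myod1 gate held no Mef2 UMI and are not drawn.

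UMIs per cell showed how even these levels were. In the E11.5 Acta1 gate Mef2c ranged from 0 to 114 UMIs per cell with a median of 29, and 160 of 173 cells had at least 1. Mef2a in the same cells ranged from 0 to 20 with a median of 2, and Mef2d from 0 to 5 with a median of 0. In Myog-high the medians were 3 for Mef2a and 1 for Mef2c, with maxima of 21 and 44. Mef2c was thus present in nearly every Acta1 cell but ranged widely in amount, and in Myog-high cells it was less even than Mef2a, which had a UMI in 268 of 319 cells against 182 for Mef2c.

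To compare detection at equal depth, each cell was thinned to 5000 UMIs and shallower cells were left out. After thinning Mef2c was found in 144 of 145 Acta1 cells, and Mef2a was found together with it in 47.6% of the cells, while 51.7% had Mef2c without Mef2a. In Myog-high (303 cells) 28.1% held both, 29.0% Mef2a without Mef2c and 11.6% Mef2c without Mef2a. In the Myod1 gate (272 cells) 0.368% held both and 80.1% held no Mef2 UMI. As a measure of free RNA, 0.870% of the thinned E11.5 primitive red blood cells, which should lack the gene, had a Mef2c UMI. Before thinning that share was 1 of 119 cells, and the median depth was 16781 UMIs in these cells and 17242 UMIs in the Acta1 gate.

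The make-up of the family's UMIs changed along the same order. Each UMI stands for a molecule, so no division by gene length was needed, but capture may differ between genes and only shifts of a share between gates are read. Mef2c made up 24.5% of the family's UMIs in the E11.5 Myod1 gate, 30.9% in Myog-low, 45.6% in Myog-high and 89.2% [88.4, 90.0] in Acta1. It made up 65.2% in endothelium, 80.9% in neural crest and 83.4% in white blood cells, against 25.8% in sclerotome and 9.89% in neurons. The share of Mef2c was thus highest in Acta1 and lowest in neurons among these E11.5 gates.

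**Figure D3:**
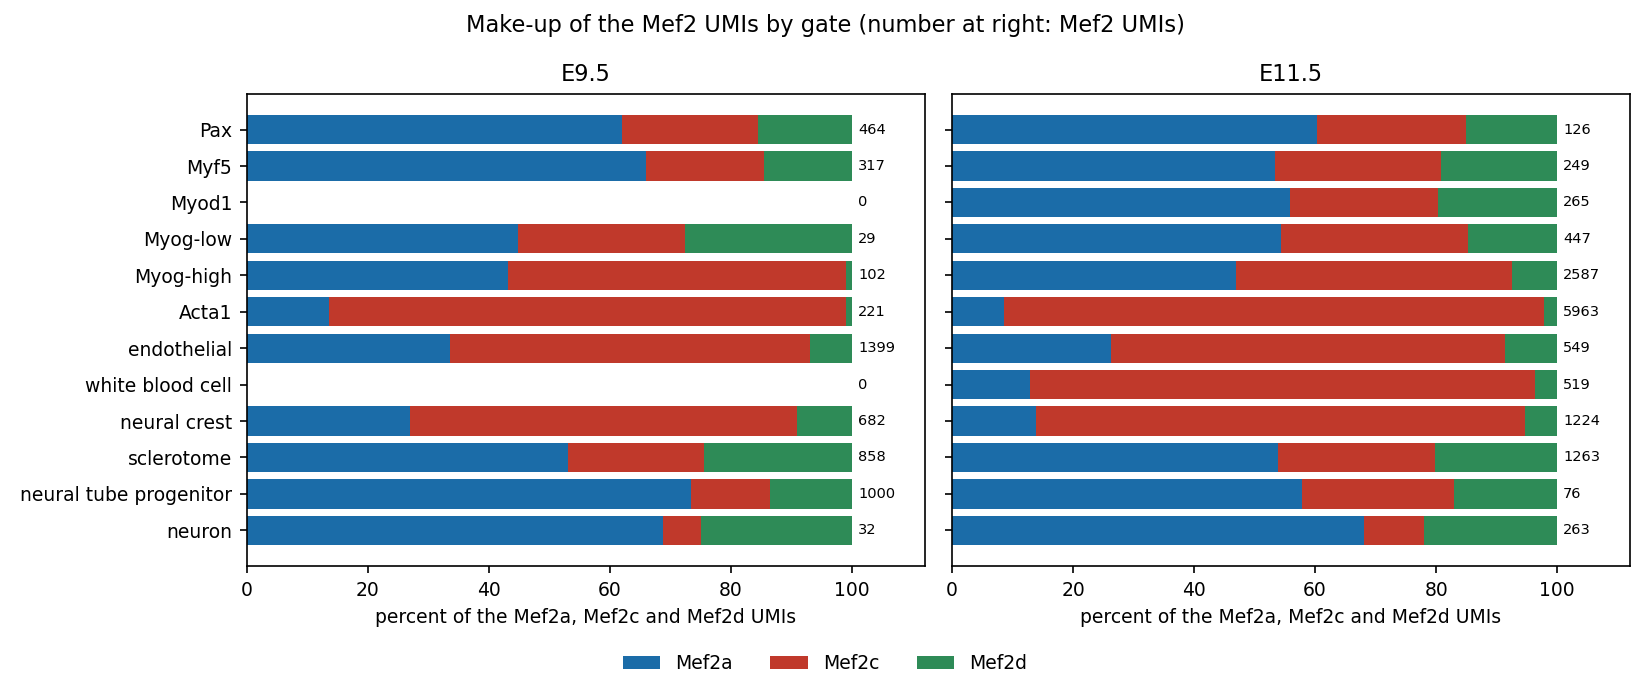
Percent of the Mef2a, Mef2c and Mef2d UMIs contributed by each gene (x axis, stacked to 100) in 12 gates (y axis) at E9.5 and E11.5, with the total number of Mef2 UMIs at the right of each bar; Mef2b had none. Mef2c fills 89.2% of the E11.5 Acta1 bar and 9.89% of the neuron bar; the E9.5 Myod1 gate had no Mef2 UMI and the E9.5 white blood cell gate had no cell, so both are blank.

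Finer steps in Myog showed where the members reached their higher levels. Among E11.5 cells with Myog and at most 9 Acta1 UMIs, the bins of 1, 2 to 4, 5 to 9, 10 to 19, 20 to 49 and at least 50 Myog UMIs held 212, 111, 52, 55, 79 and 133 cells. Mef2a stood at 40.0, 55.0, 61.7, 95.4, 167 and 323 UPM in that order, higher in each bin than in the last, although the intervals of neighbouring bins overlapped up to the fourth. Mef2c stood at 24.2, 28.6, 39.0 and 31.2 UPM in the lower 4 bins, then at 138 UPM and 363 UPM. Mef2d stood at 13.8 UPM or below in the lower 3 bins, at 16.6 UPM in the fourth, and reached 32.2 and 46.9 UPM. The intervals of Mef2c overlapped across the lower 4 bins, all of which lay above its level of 13.5 UPM [10.4, 17.2] in the Myod1 gate. Myog UMIs per cell also depend on the depth of the cell, whose median ran from 14726 to 18679 UMIs over the bins, and the part of depth was not tested.

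Over finer steps in Acta1 Mef2c rose, and Mef2a was highest at 10 to 99 Acta1 UMIs among these bins. The bins took all kept E11.5 cells with Myog, including cells in gates of more than 1 tissue, which the Myog bins left out. Mef2c stood at 79.4 UPM without Acta1 (610 cells), 310 UPM at 1 to 9 Acta1 UMIs (124 cells), 1553 UPM at 10 to 99 (114 cells) and 1717 UPM at 100 or more (71 cells). Mef2a stood at 105, 191, 225 and 89.1 UPM in the same bins, and the last step was a log2 ratio of -1.34 [-1.61, -1.07]. Mef2d likewise peaked at 10 to 99 Acta1 UMIs, at 52.1 UPM, and stood at 33.6 UPM in the last bin, a log2 ratio of -0.63 [-1.13, -0.15]. Mef2c changed little over that last step, by 0.15 [0.07, 0.22]. The median depth of the cells was 14960.5 UMIs at 10 to 99 Acta1 UMIs and 24720 UMIs in the last bin. The bins without Acta1 and with 1 to 9 Acta1 UMIs pooled cells with few and with many Myog UMIs. In the bin of at least 50 Myog and at most 9 Acta1 UMIs, Mef2a stood at 323 UPM, above its highest Acta1 bin. Mef2d stood there at 46.9 UPM and Mef2c at 363 UPM, below their highest Acta1 bins.

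The genes of muscle cell fusion did not share 1 course over the same bins. Mymx (myomixer) and Mymk (myomaker) encode the membrane proteins that fuse myoblasts, and Rxrg encodes a retinoid X receptor. Over the Acta1 bins Mymx stood at 177, 529, 606 and 118 UPM, and so was highest in the same Acta1 bin as Mef2a and Mef2d. In the bin of at least 50 Myog and at most 9 Acta1 UMIs Mymx stood higher, at 971 UPM. Mymk stood at 51.5, 201, 456 and 572 UPM and Rxrg at 11.6, 19.5, 173 and 310 UPM, and both kept rising with Mef2c. Myog stood at 1000, 2354, 3273 and 1683 UPM.

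**Figure D4:**
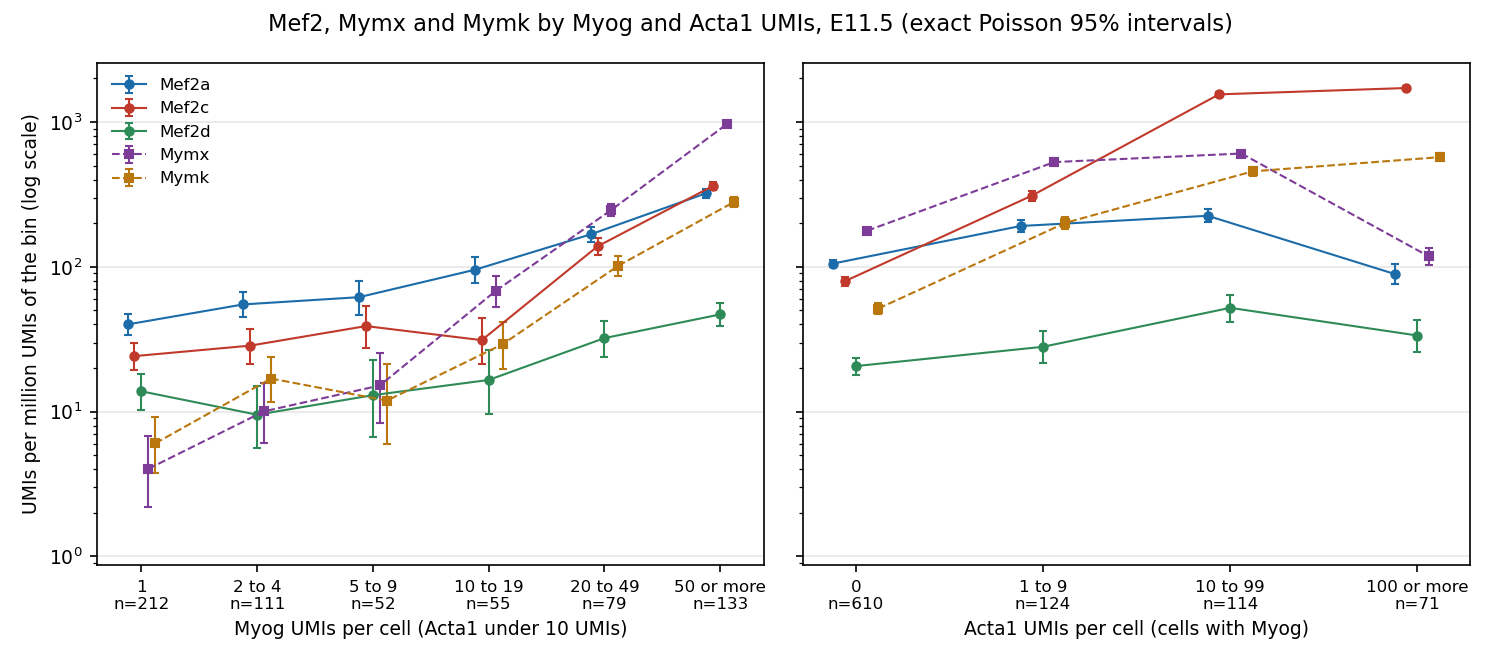
Level of Mef2a, Mef2c, Mef2d (solid lines), Mymx and Mymk (dashed lines) at E11.5 on a log axis (y, UMIs per 1000000 UMIs of the bin) by Myog UMIs per cell (left) and by Acta1 UMIs per cell (right), with the number of cells under each bin and exact Poisson 95% intervals. On the right Mef2a ends at 89.1 UPM and Mymx at 118 UPM, both highest of these bins at 10 to 99 Acta1 UMIs. Mef2c ends there at 1717 UPM and Mymk at 572 UPM. On the left, at 50 or more Myog UMIs, Mef2a stands at 323 UPM and Mymx at 971 UPM.

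The members were also compared between cells with and without Mymx. In the Myog-high gate cells with at least 2 Mymx UMIs (197 cells) were compared with cells without any (96 cells). Mef2a stood at 288 against 70.4 UPM, a log2 ratio of 2.03 [1.78, 2.30], Mef2c at 300 against 31.3 UPM (3.26 [2.89, 3.66]) and Mef2d at 45.3 against 14.4 UPM (1.66 [1.07, 2.29]). Myog also differed, at 3642 against 770 UPM, and its part in these differences was not tested. In the Acta1 gate (88 against 67 cells) Mef2a still stood higher with Mymx, at 208 against 85.2 UPM, and Mef2d at 48.5 against 26.6 UPM. Mef2c there was 1630 UPM with Mymx and 1762 UPM without, a log2 ratio of -0.11 [-0.20, -0.02]. All 3 genes thus stood higher with Mymx in Myog-high, and Mef2c did not in Acta1. The Acta1 cells with Mymx also differed in Myog (3270 against 1466 UPM), Acta1 (4569 against 10349 UPM) and median depth (18322 against 13528 UMIs), whose part was not tested.

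Myog-high cells with proliferation transcripts had less of every detected member. In that gate, the 169 cells with at least 2 UMIs of Mki67 and Top2a, genes of dividing cells, were compared with the 121 cells without any. Mef2a stood at 161 against 302 UPM, a log2 ratio of -0.90 [-1.08, -0.73], Mef2c at 124 against 374 UPM (-1.59 [-1.77, -1.42]) and Mef2d at 23.2 against 51.5 UPM (-1.15 [-1.60, -0.70]). Myog stood at 1609 against 4413 UPM in the same cells, and the dividing cells were deeper, with a median of 21467 against 13495 UMIs. Neither Myog nor depth was held constant in this split. In Myog-low (202 against 82 cells) the log2 ratio was -0.92 [-1.51, -0.29] for Mef2c, and the intervals held 0 for Mef2a (-0.10 [-0.62, 0.45]) and Mef2d (-0.87 [-1.74, 0.06]).

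At E9.5 few cells had passed into the late muscle gates, yet in those few Mef2c already rose along the gates. The Pax and Myf5 gates held 674 and 354 cells, Myod1 6, Myog-low 22, Myog-high 13 and Acta1 5. Mef2c stood at 9.31, 9.40, 0, 19.4, 236 and 1330 UPM along them, and Mef2a at 25.8, 31.7, 0, 31.5, 182 and 211 UPM. The 0 of the Myod1 gate rests on 6 cells and by the same bound of 3 UMIs allows 25.8 UPM, so it cannot be told from the neighbouring gates. Mef2d was at 6.45 and 6.98 UPM in the Pax and Myf5 gates and rested on 8, 1 and 2 UMIs in Myog-low, Myog-high and Acta1.

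The late E9.5 cells differed among themselves. The 5 Acta1 cells held 99, 46, 26, 15 and 3 Mef2c UMIs, and 12, 12, 4, 1 and 1 Mef2a UMIs in the same order of cells. Their Acta1 UMIs were 211, 80, 45, 22 and 11, so the cells with more Acta1 also had more Mef2c, and a single cell supplied 99 of the 189 Mef2c UMIs. Of the 13 Myog-high cells, 7 had a Mef2c UMI and the highest had 28. Across these cells depth ran from 1132 to 46159 UMIs. Markers of cardiac muscle were read in the 5 Acta1 cells: Myl7 gave 20 UMIs (141 UPM), and Nkx2-5, Nppa, Myh6 and Tnni3 were at 0, while the list summed to 32.0 UPM in the E11.5 gate; its part in the Mef2c level was not tested.

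Within the muscle gates the stages were compared where both had cells. Mef2c in the Acta1 gate had a log2 ratio of E11.5 over E9.5 of 0.36 [0.15, 0.57], and in Myog-high of -0.25 [-0.64, 0.16]. Mef2a gave -0.37 [-0.90, 0.21] and 0.16 [-0.28, 0.63] in these gates. In the Pax gate Mef2c was higher at E11.5 by 0.72 [0.10, 1.31] and in the Myf5 gate by 0.90 [0.38, 1.42], with levels under 18 UPM at both stages. The make-up of the Pax and Myf5 gates also differed by stage. Their muscle progenitor genes summed to 193 and 202 UPM at E9.5 and to 1462 and 2380 UPM at E11.5. The part of make-up in these stage ratios was not tested. Mef2d was higher at E11.5 by 0.83 [0.22, 1.45] in the Myf5 gate. In Myog-high and Acta1 it gave 2.98 [0.49, 8.29] and 1.61 [-0.27, 4.67], on 1 and 2 UMIs at E9.5.

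The listed muscle targets of MEF2 were higher in the later muscle gates at E11.5, as the family was. The Acta1 gate takes cells by a contractile gene, so muscle genes are higher in it by choice of cells. The 7 myocyte genes of the gate check summed to 745, 6315 and 46380 UPM in Myod1, Myog-high and Acta1. The counts below therefore cannot tie the targets to MEF2. The list has 8 genes, of which Myog was used by the gates and is left out of what follows. The other 7 were past 2-fold higher in Acta1 than in Myod1, where 13.3% of all genes were, and past 2-fold higher in Acta1 than in Myog-high, where 11.8% were. With Myog included, the median log2 ratio of the list was 7.15 against -0.28 over all genes for the former and 3.08 against -0.15 for the latter. From Myod1 to Myog-high the 5 other genes with enough UMIs rose past 2-fold, where 5.89% of all genes did.

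The targets differed in the step at which they rose. Srpk3, a muscle kinase whose promoter site is printed above, stood at 0.208 UPM in Myod1, 12.6 UPM in Myog-high and 138 UPM in Acta1. Smyd1, a methyltransferase of the sarcomere, stood at 1.46, 33.1 and 196 UPM, and Hrc, a calcium-binding protein of the sarcoplasmic reticulum, at 0, 21.6 and 140 UPM. Des, the intermediate filament desmin, was already at 63.6 UPM in Myod1 and reached 274 and 1129 UPM. Myom1, of the sarcomeric M-band, stood at 0.832, 5.69 and 94.2 UPM, and Ckm, the muscle creatine kinase, at 0.208, 2.01 and 31.4 UPM. In fold, Srpk3 and Smyd1 rose more from Myod1 to Myog-high, and Myom1 and Ckm more from Myog-high to Acta1, with 1 UMI of Srpk3 and of Ckm in the Myod1 gate.

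The corepressors did not move one way. From Myod1 to Acta1 2 of 5 were past 2-fold higher and 2 past 2-fold lower, against 13.3% and 21.6% of all genes. Hdac5, whose promoter holds a match printed above, stood at 12.7, 26.1 and 52.5 UPM in Myod1, Myog-high and Acta1, and Hdac9 at 1.04, 0.837 and 9.61 UPM. Hdac7 went the other way, at 17.5, 11.2 and 3.20 UPM, as did Cabin1, a calcineurin-binding repressor, at 25.0, 12.9 and 9.93 UPM. Hdac4 differed by a log2 ratio of 0.28 [-0.21, 0.77].

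Of the 8 kinase and calcineurin genes, 2 were past 2-fold higher in Acta1 than in Myod1 and none was past 2-fold lower, against 13.3% and 21.6% of all genes. Ppp3ca, the catalytic A-alpha subunit of calcineurin, stood at 42.0, 94.6 and 160 UPM along Myod1, Myog-high and Acta1. Prkd1, protein kinase D1, rested on 22, 14 and 31 UMIs. Mapk7 (ERK5), by contrast, stood at 30.6 and 19.9 UPM at the ends, a log2 ratio of -0.62 [-1.07, -0.18].

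Of 11 cofactors and partners 5 were past 2-fold higher and 2 lower from Myod1 to Acta1, against 13.3% and 21.6% of all genes. Myod1 and Myog, which the gates used, are among the 5, and Myog was fixed by the gates at 0 in the Myod1 gate. Vgll2, a vestigial-like cofactor of muscle, was highest in Myog-high, at 200 UPM against 33.7 UPM in Myod1 and 149 UPM in Acta1. Myf6 rose late, from 3.74 UPM in Myod1 and 14.4 UPM in Myog-high to 114 UPM in Acta1. Tcf3, an E protein partner of the myogenic factors, stood at 230, 186 and 87.5 UPM, and Myf5 at 126, 49.9 and 61.2 UPM. Smarcd3, a chromatin remodelling subunit, stood at 69.4 and 145 UPM in Myod1 and Acta1.

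Endothelial cells carried all 3 detected members above the pooled level of the other kept cells at both stages, though not above every other gate. At E9.5 (200 cells) Mef2a stood at 132 UPM, Mef2c at 235 UPM and Mef2d at 27.6 UPM, and at E11.5 (62 cells) at 125, 311 and 40.8 UPM. Over the other kept cells of the same library the log2 ratios at E9.5 were 2.29 [2.15, 2.43], 3.77 [3.65, 3.88] and 1.86 [1.55, 2.16], and at E11.5 1.42 [1.17, 1.66], 1.91 [1.76, 2.07] and 1.60 [1.15, 2.02]. These 3 of 4 members were past 2-fold higher, with 12.1% of genes at E9.5 and 11.8% at E11.5 past 2-fold higher and 14.2% and 14.5% lower.

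The size of the excess depended on the cells compared. Without the muscle gates among the others, where cells of more than 1 tissue stayed, the log2 ratio at E11.5 was 3.07 for Mef2c and 1.81 for Mef2a. Within endothelial cells Mef2a was level between the stages, at -0.08 [-0.36, 0.19], and Mef2c and Mef2d stood higher at E11.5 by 0.41 [0.22, 0.59] and 0.56 [0.03, 1.08]. No member was past 2-fold, with 7.26% of genes past 2-fold higher and 4.32% lower.

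Mef2c was detected in most endothelial cells but ranged in amount. It had a UMI in 177 of 200 cells at E9.5, with a median of 3.5 and a maximum of 15 UMIs per cell, and in 56 of 62 cells at E11.5, with a median of 4 and a maximum of 29. After thinning to 5000 UMIs 40.4% of the E11.5 cells held both Mef2a and Mef2c and 42.1% Mef2c without Mef2a. Cells with and without a UMI of Klf2, a flow-responsive factor, were close at E9.5, with Mef2c at 235 UPM [216, 256] with it and 234 UPM [208, 262] in the 85 cells without. At E11.5 the values were 340 UPM [299, 385] in 35 cells and 260 UPM [213, 314] in 27, and these splits were chosen after values had been seen.

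The endothelial targets of MEF2 were high in the same cells. All 5 (Klf2, Klf4, Dll4, Nr4a1 and Hlx) were past 2-fold higher in the endothelial gate than in the other cells at both stages. Of all genes 12.1% were at E9.5 and 11.8% at E11.5. The median log2 ratio of the list was 3.65 against -0.05 over all genes at E9.5 and 4.44 against 0.00 at E11.5. Because the gate takes cells by Cdh5 and Pecam1, genes of endothelium are high in it by choice of cells. These counts therefore cannot tie the targets to MEF2. Between the stages 4 of 5 rose past 2-fold within the endothelium, where 7.26% of all genes rose and 4.32% fell past 2-fold. Dll4, a Notch ligand of arteries, went from 34.4 to 69.5 UPM, Nr4a1, an orphan nuclear receptor, from 13.0 to 42.6 UPM, Hlx, a homeobox factor, from 13.5 to 35.6 UPM, and Klf4 from 9.59 to 27.8 UPM. Klf2 alone was level, at 227 and 222.5 UPM (log2 ratio -0.03 [-0.24, 0.18]).

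Of the 5 corepressors 1 was past 2-fold higher in endothelium and 1 past 2-fold lower, at each stage. Over all genes the shares were 11.8% higher and 14.5% lower at E11.5, and 12.1% and 14.2% at E9.5. The higher one at E11.5 was Hdac7, the class IIa deacetylase known from vessels, at 90.4 UPM against 16.7 UPM in the other cells. At E9.5 Hdac7 stood at 55.6 UPM in endothelium. None of the 8 kinase and calcineurin genes was past 2-fold in either direction at E11.5. At E9.5 2 of the 8 were past 2-fold higher, Camk2d (44.3 against 21.4 UPM) and Ppp3ca (121 against 43.5 UPM), and none was past 2-fold lower. Hdac7 was thus low in the Acta1 cells, at 3.20 UPM, and high in the endothelial cells, both of which carried Mef2c.

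Neural crest cells stood above the pooled other kept cells in Mef2c alone of the members. Mef2c stood at 56.4 UPM at E9.5 (440 cells) and 199 UPM at E11.5 (234 cells). Mef2a stood at 23.8 and 34.0 UPM and Mef2d at 8.02 and 13.1 UPM. Over the other kept cells Mef2c gave a log2 ratio of 1.44 [1.29, 1.59] at E9.5 and 1.31 [1.22, 1.41] at E11.5. Mef2a gave -0.33 [-0.56, -0.12] and -0.50 [-0.73, -0.28], and for Mef2d the interval held 0 at both stages. The 1 of 4 members past 2-fold compares at E9.5 with 3.53% of genes past 2-fold higher and 13.1% lower. At E11.5 the shares were 6.52% and 15.7%. Without the muscle gates among the others, where cells of more than 1 tissue stayed, Mef2c at E11.5 gave 2.63 and Mef2a -0.12 with an interval that held 0.

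Within the neural crest gate Mef2c rose between the stages by a log2 ratio of 1.82 [1.65, 1.98] or 3.53-fold, Mef2d by 0.70 [0.18, 1.23] and Mef2a by 0.51 [0.20, 0.82]. Mef2c was the 1 of 4 members past 2-fold, as were 15.3% of genes, with 5.21% past 2-fold lower. The rise was in cells with a UMI as well as in amount: 225 of 440 cells at E9.5 had a Mef2c UMI, with a maximum of 9, and 167 of 234 cells at E11.5, with a maximum of 26.

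The marker make-up of the gate changed over the same interval. Fabp7 stood at 15.3 UPM at E9.5 and 1436 UPM at E11.5, and Ednrb, an endothelin receptor gene, at 103 and 698 UPM, while Tfap2b went from 222 to 47.4 UPM. The part of this change in the rise of Mef2c was not tested.

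Among the pathway genes in neural crest at E11.5, 1 of 8 kinase and calcineurin genes was past 2-fold higher than in the other cells. None of the 8 was past 2-fold lower, and over all genes the shares were 6.52% higher and 15.7% lower. The higher one was Camk2d, a calcium/calmodulin-dependent kinase, at 61.7 against 22.3 UPM. Against the same shares, 1 of 5 endothelial targets was past 2-fold higher, Nr4a1 at 12.3 against 1.92 UPM, and the other 4 were past 2-fold lower. Of the 2 neural crest targets, Dlx6 did not reach 20 UMIs in any comparison. Dlx5 gave a log2 ratio to the other cells of 1.11 [-0.07, 2.12] at E9.5, on 9 UMIs in the gate, where it was past 2-fold higher, and of 0.45 [-1.21, 1.72] at E11.5, on 5 UMIs, and both intervals held 0.

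Neurons were low in Mef2c and not in the other detected members. At E11.5 (315 cells) Mef2c stood at 7.09 UPM, Mef2a at 48.8 UPM and Mef2d at 15.8 UPM. At E9.5 (71 cells) Mef2c rested on 2 UMIs (2.85 UPM), and Mef2a and Mef2d stood at 31.3 and 11.4 UPM. Over the other kept cells Mef2c gave a log2 ratio of -3.62 [-4.23, -3.06] at E11.5 and -3.004 [-6.05, -1.15] at E9.5, and for Mef2a and Mef2d the intervals held 0 at both stages. The 1 of 4 members past 2-fold lower compares with 16.6% of genes lower and 20.2% higher at E11.5, and 8.49% lower and 15.3% higher at E9.5.

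The low neuronal level of Mef2c depended on which cells were compared. Against neural tube progenitors of the same stage (131 cells, 13.6 UPM) the log2 ratio was -0.94 [-1.85, -0.00241]. When cells in the gates of more than 1 tissue were kept, the ratio to the other cells was -1.70 instead of -3.62. Without the muscle gates among the others, where cells of more than 1 tissue stayed, Mef2c at E11.5 gave -2.54. Mef2a then gave 0.43 [0.20, 0.64], an interval that no longer held 0, and Mef2d 0.40 [-0.00244, 0.78]. Between the stages Mef2a in neurons gave 0.64 [-0.00302, 1.35] and Mef2c 1.32 [-0.68, 4.44]. Mef2c was the 1 of 4 members past 2-fold, on 2 UMIs at E9.5, with 21.5% of genes past 2-fold higher and 7.39% lower.

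The kinds of neuron were not alike at E11.5. Sensory neurons, with Pou4f1 and Isl1, held Mef2c at 13.6 UPM (15 UMIs in 56 cells), motor neurons, with Mnx1, at 5.40 UPM (2 UMIs in 27 cells) and the other neurons at 4.10 UPM (9 UMIs in 232 cells). Sensory neurons exceeded the other neurons by a log2 ratio of 1.73 [0.44, 3.10], and the ratio to motor neurons had an interval that held 0 [-0.77, 4.50]. Sensory neurons were also the deeper cells, with a median of 20815.5 UMIs against 8836 in the other neurons, and the part of depth was not tested. Of the 8 kinase and calcineurin genes 1 was past 2-fold higher in E11.5 neurons than in the other cells and 1 past 2-fold lower. Of the 5 corepressors 1 was past 2-fold higher and none lower. Over all genes the shares were 20.2% higher and 16.6% lower. The higher ones were Ppp3ca, at 169 UPM in neurons against 68.5 UPM in the other cells, and Hdac5, at 33.0 against 16.2 UPM.

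The order of Mef2c levels over the E11.5 gates ran from Acta1 (1704 UPM) through white blood cells (463), endothelium (311), neural crest (199) and Myog-high (198) to Myog-low (25.7), Myf5 (17.6), sclerotome (15.4), Pax (15.4), neural tube progenitors (13.6), Myod1 (13.5), neurons (7.09), epithelium (1.20) and primitive red blood cells (0.475). Neural crest and Myog-high did not differ beyond their counting intervals, nor did the run from Myf5 to Myod1. In the last pair of gates Mef2c rested on 1 UMI each, in 49 and 119 cells, which cannot be told from free RNA. Mef2a ran over a narrower span, from 203 UPM in Myog-high, 163 UPM in Acta1 and 125 UPM in endothelium to 11.9 UPM in primitive red blood cells, and Mef2d from 42.9 UPM in Acta1 and 40.8 UPM in endothelium, which did not differ beyond counting error, to 3.80 UPM in primitive red blood cells.

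**Figure D5:**
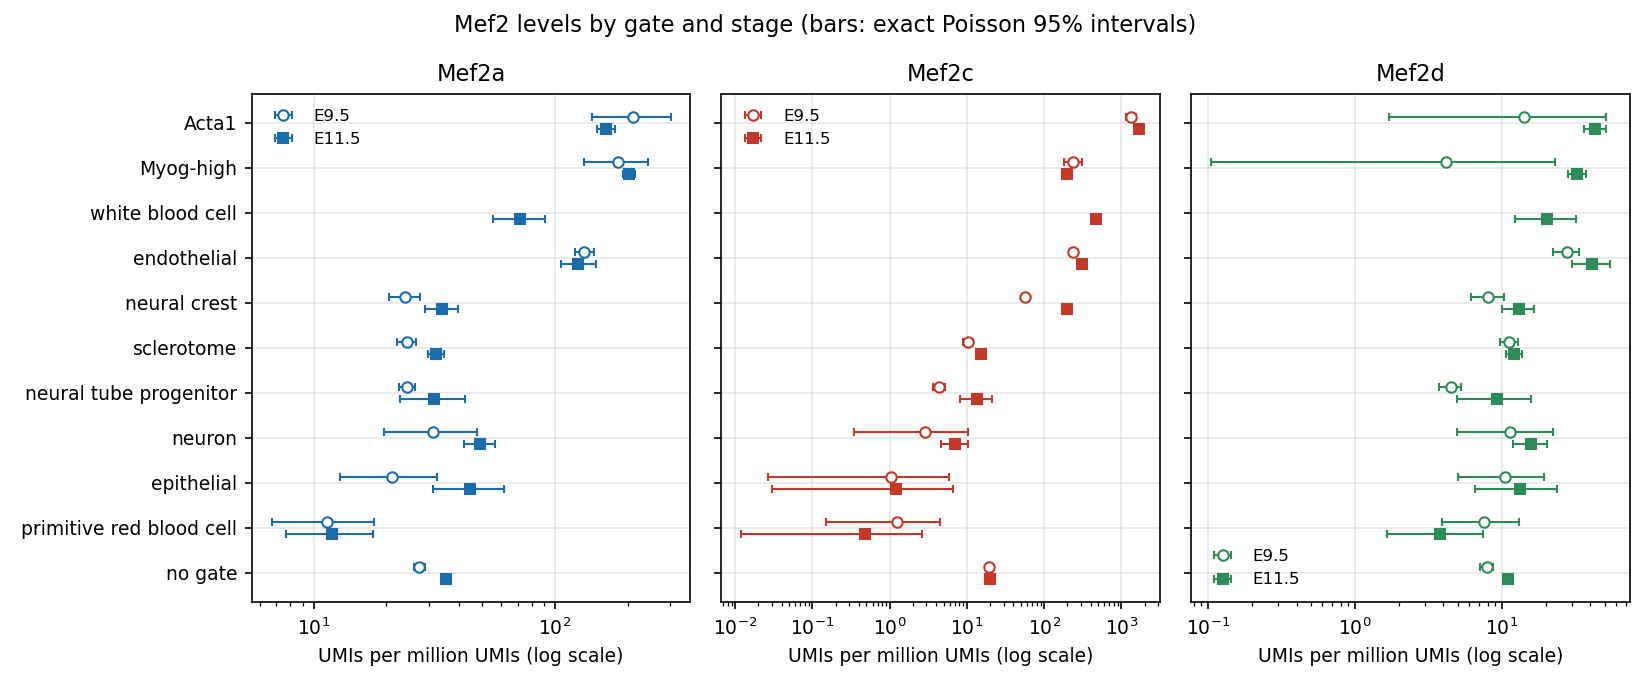
Level of Mef2a, Mef2c and Mef2d (panels; x axis, UMIs per 1000000 UMIs, log scale) in 10 gates and in ungated cells (y axis) at E9.5 (open circles) and E11.5 (filled squares), with exact Poisson 95% intervals; no white blood cell passed its gate at E9.5. At E11.5 Mef2c spans from 0.475 UPM in primitive red blood cells to 1704 UPM in the Acta1 gate, while Mef2a spans from 11.9 to 203 UPM.

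Genes with a like pattern were sought over 23 classes of at least 30 cells (a gate in a stage), among 6285 genes that reached 50 UPM in 1 class or more, by Pearson's correlation of log2(UPM + 1). The classes of a stage share a library, and the values are a description. Nearest to Mef2c were Inpp4b (r = 0.950), a phosphoinositide phosphatase, St6galnac4 (0.863) and Ilk (0.859), the integrin-linked kinase, followed by Sh3glb1 (0.849) and Tubb6 (0.829). Inpp4b stood at 71.4 UPM in Acta1, 1.25 UPM in Myod1 and 10.4 UPM in endothelium at E11.5. Among the genes compared, nearest to Mef2a were Vasp (0.892), an actin regulator, Sh3glb1 (0.884), Cnot6l (0.864), Tm6sf1 (0.854) and Fam8a1 (0.844). Its paralog Mef2d was nearer still, at 0.914, but reached 50 UPM in no class and so was not among the genes compared. Mef2d was nearest to Mef2a itself (0.914), then to Vasp (0.909), Dram2 (0.872), Sh3glb1 (0.868) and Rsu1 (0.842). Mef2c was less like its paralogs, with 0.807 to Mef2a and 0.785 to Mef2d.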

How the data were processed

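The authors deposited raw UMI counts per gene and cell barcode for each stage, made with Cell Ranger 3.0.1 on mm10 per the labels; the chemistry end and strand setting are not given in the sources used here. Cells with at least 200 and fewer than 6500 genes and under 15% mitochondrial UMIs were kept. Counts were summed over gates, and 1 library of 3 pooled embryos per stage allows no test. Ratios therefore carry exact conditional binomial intervals, levels exact Poisson intervals and shares Clopper-Pearson intervals (95%, counting error only). Only the ratio interval was tried on simulated counts. These were Poisson draws, as the interval assumes, so they cannot show how it covers spread between cells. A gene at 0 in a class was set to 3 UMIs for counts past 2-fold and for list medians, and to no change where that bound gave no direction. The E9.5 library held 149368952 UMIs and the E11.5 library 136655763. A gene of the neural crest gate and a marker are not reported here. Members, gates and lists were chosen with earlier results of these data known. Named genes were the members, the listed pathway and marker genes, and, among the genes compared, the 5 most like each member. Doublets were not removed; Scrublet (scanpy 1.11.5, expected rate 8%, set after the default called none at E11.5) marked 683 and 407 barcodes, used as an alternative. Promoter windows came from RefSeq on GRCm38.p6 and gene spans from GENCODE vM21. Python 3.11.15, numpy 2.4.6, pandas 2.3.3 and scipy 1.17.1 were used. Alternatives were thinning to 5000 UMIs, means over cells, no cell filter, at least 1000 genes, Scrublet calls removed, gate minimums doubled, cells of more than 1 tissue kept and an Acta1 boundary of 20 UMIs. Leaving out the muscle gates was added after the data were seen, and cells that passed a muscle gate and another tissue's gate were not left out with them.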

Additional observations from a re-analysis of the deposited data

Results flagged for a closer look

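Mef2a differed in direction between the stages in 1 comparison. From the Myog-high to the Acta1 gate its log2 ratio was 0.21 at E9.5 and -0.32 at E11.5. The difference was not tested, and the E9.5 value rests on 13 and 5 cells and has an interval of -0.51 to 0.92.

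The barcodes outside the cell filter, which the reported comparisons left out and which enter only the alternative without a cell filter, also held Mef2 UMIs. The 270 removed barcodes of E9.5 held Mef2a at 28.8 UPM, Mef2c at 26.5 UPM and Mef2d at 9.25 UPM. The 572 removed barcodes of E11.5 held Mef2a at 84.0 UPM, Mef2c at 228.5 UPM and Mef2d at 22.7 UPM, and for each of these genes this exceeded the level of the kept cells. At E11.5 the 126 barcodes with at least 6500 genes gave 1490 of the 1577 removed Mef2c UMIs, at 236 UPM. Of all removed E11.5 barcodes 7 passed the Acta1 gate, with 598 Mef2c UMIs (1933 UPM). The 516 outside the muscle gates stood at 171 UPM, and any that passed a muscle gate and another tissue's gate were counted among these 516.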

How the results depend on the processing

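No paired analysis was possible because each stage has 1 library. Over 18 log2 ratios with a value (Mef2b gives none), 138 alternative values kept their direction or held no called direction; 98 stayed within the counting interval and 40 moved outside it, with none reversed. Thinned to 5000 UMIs, the Myog-high over Myod1 ratio was 3.04 for Mef2a, 4.72 for Mef2c and 2.79 for Mef2d, the endothelial ratio 1.78, 2.35 and 2.23, the neural crest ratio 1.77 for Mef2c and -0.47 for Mef2d, and the stage ratio of Mef2c 1.68. As means over cells, the stage ratio was 0.59 for Mef2a and 1.69 for Mef2c, Acta1 over Myog-high -0.55 and 2.70, and for Mef2c Myog-high over Myod1 was 3.11 and neural crest 1.65. Without the cell filter, the stage ratio was 0.74 for Mef2a and 2.00 for Mef2c, and Mef2c gave 3.22 for Acta1 over Myog-high and 1.18 for neural crest. Without Scrublet calls, Mef2c gave 1.81 for stage and 1.41 for neural crest. With gate minimums doubled, Acta1 over Myog-high was -0.71 for Mef2a, 2.97 for Mef2c and 0.0282 for Mef2d, and the Mef2c neuron ratio was -2.82. With the Acta1 boundary at 20 UMIs, Acta1 over Myog-high was -0.59, 2.77 and 0.0521, and Myog-high over Myod1 was 4.28 for Mef2c. With cells of more than 1 tissue kept, Mef2c gave 3.28 for Myog-high over Myod1 and -1.70 for neurons. Without the muscle gates, the stage ratio was 0.32 for Mef2a, 0.81 for Mef2c and 0.54 for Mef2d, the endothelial ratio 1.81 for Mef2a and 3.07 for Mef2c, neural crest -0.12 and 2.63, and neuron 0.43 and -2.54. The cause of these shifts was not tested. Low UMI numbers limit the Mef2d values, and the number of cells limits the late muscle gates at E9.5.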

Other observations

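White blood cells were a further site of Mef2c. At E11.5 54 cells with Ptprc and Tyrobp or Fcer1g passed that gate, and none did at E9.5. Mef2c stood in them at 463 UPM [421, 509], with a UMI in 48 of 54 cells and a median of 6.5 per cell, Mef2a at 71.7 UPM and Mef2d at 20.3 UPM. Against endothelium Mef2c was higher by a log2 ratio of 0.57 [0.37, 0.78] and Mef2a lower, at -0.80 [-1.24, -0.38]. The gate's 4 check markers (Csf1r, Cx3cr1, C1qb and Laptm5) were all detected and summed to 3654 UPM.

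Klf2, listed as an endothelial target, also rose in muscle. It gave 4 UMIs (0.832 UPM) in the Myod1 gate, 2 UMIs (0.335 UPM) in Myog-high and 43 UMIs (13.8 UPM) in Acta1 at E11.5, where 4 of 6 endothelial markers (Tek, Tie1, Cldn5 and Esam) were at 0 and the other 2, Egfl7 with 17 UMIs and Emcn with 2, summed to 6.09 UPM. Their part in the Klf2 level was not tested. Its endothelial level at that stage was 222.5 UPM.

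The 218 cells that passed gates of more than 1 tissue at E11.5 held Mef2c at 162 UPM and 759 of its 10983 UMIs, with up to 61 in a cell. At E9.5 the 316 such cells stood at 23.9 UPM.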
